A study of Mus musculus with 20 samples.

Results

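Macrophages were followed through 10 genes in mouse caecum tumours grown from 5 tumour organoid lines, in mice treated with galunisertib and in control mice. Galunisertib is a small molecule taken by mouth that blocks the kinase of TGF-beta receptor I. The genes were Trem2, Csf1r, Cd68, Mrc1, Apoe, C1qa, C1qb, C1qc, Adgre1 and Spp1, a list of known macrophage markers. Each gene was read from the probe set that carried its symbol alone in the platform annotation, and from the one of highest mean where there were several. This gave 9 of the 10 genes, out of 17097 genes with such a probe set. Spp1, which encodes osteopontin, had none and was not analysed here. All 9 lay above the filter on dim genes (a log2 value of 4.16) on 20 of 20 arrays, and 15556 genes passed that filter on at least 2 arrays and were tested.

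The 20 tumours came from C57BL/6J mice, with 1 array each, and every line gave 2 tumours under galunisertib and 2 control tumours. Dosing by gavage, 10 mg of galunisertib 2 times a day, began at day 11 and ended with sacrifice at week 5. The lines were MTO140 (genotype LAKTP, type LiM), MTO54 (parental, LAKP), MTO207 (parental, LAKT), and MTO68 and MTO93 (parental, LAKTP). The labels do not spell out the genotype letters or the type LiM, and LAKP, LAKT and LiM are each represented by 1 line. MTO140 was injected as spheroids beneath the caecum serosa, whereas the parental lines were first grown under the skin and transplanted as tumour pieces of 1 mm3. Each line had a strip of 4 arrays to itself, so a difference between lines cannot be told apart from one between strips, and each strip held both treatments. RNA was taken from whole tumour fragments, which hold tumour epithelium and host cells together. The mean level of 8 epithelial genes (Epcam, keratins and others) was between 9.82 and 10.88 in galunisertib tumours and between 9.33 and 10.89 in control tumours, and that of 5 genes shared by leukocytes was between 6.97 and 8.17 in galunisertib tumours and between 6.37 and 8.38 in control tumours.

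Tumour macrophages descend largely from blood monocytes, with a contribution of macrophages resident in the tissue. The receptor encoded by Csf1r, bound by the cytokines CSF1 and IL-34, keeps them alive, and the transcription factor PU.1 sets up their gene programme. They clear dead cells, lipids and matrix, and secrete the subunits of C1q, which starts the classical complement pathway. TREM2 is a lipid-binding receptor that signals through the adaptor encoded by Tyrobp and marks a lipid-handling state often found in tumours, together with apolipoprotein E. TGF-beta acts on macrophages as well as on tumour cells and fibroblasts, so an inhibitor given to the whole animal reaches all of them.

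Arrays differed in the spread of their values, and some tumours stood apart. The SD of an array's values was between 1.46 and 1.83, and it was lowest on both MTO207 control arrays (1.461 each) and on MTO68 control replicate 2 (1.468). The other MTO68 control array had an SD of 1.759. Leaving out 1 of the MTO68 control tumours raised the number of genes called in several comparisons, as given below beside the results it touches. All values below are log2 levels or log2 differences, and a difference of 1 is a doubling.

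Over the 5 lines, the 9 macrophage genes showed no called difference between galunisertib and control tumours. Of the 9, 7 had a lower and 2 a higher mean in galunisertib tumours, with a median difference of -0.07, against a median of 0.0012 over all genes tested, of which 49.7% had a lower mean. Limma, a linear model with shared variance estimates, called 0 of the 9 at an adjusted p of 0.05, where it called 0% of the 15556 genes. At an unadjusted p under 0.05 stood 1 of the 9, Trem2, where 7.96% of all genes did. The exact permutation of treatment within lines (7776 arrangements, two-sided) also passed 0 of the 9 after adjustment, and 0 of all 15556 genes. Without adjustment, 1 of the 9 had a permutation p under 0.05, as did 1310 of the 15556 genes. In whole tissue, fewer macrophages and less RNA per macrophage cannot be told apart. With 2 tumours per group, the precision of each difference was set by the small number of arrays.

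Trem2, the lipid receptor, was the gene with the most even difference. In MTO68 its level was 5.20 and 5.07 in galunisertib tumours, against 5.72 and 5.58 in control tumours. In MTO140 it was 5.10 and 5.00 in galunisertib tumours, against 5.35 and 5.52 in control tumours. In MTO93 it was 5.27 and 5.40 in galunisertib tumours, against 5.51 and 5.45 in control tumours. Both treated tumours lay below both control tumours in these 3 lines. In MTO207 the level was 5.20 and 5.39 in galunisertib tumours, against 5.83 and 5.26 in control tumours, and in MTO54 it was 5.43 and 5.30 in galunisertib tumours, against 5.28 and 5.48 in control tumours. The groups overlapped in both of these lines, and in MTO54 the means were nearly equal. The treated mean was the lower one in 5 of 5 lines, which held for 3.28% of all genes tested, and none of the 9 had the higher treated mean in all 5, against 3.75% of all genes. Over the 5 lines Trem2 averaged 5.24 ± 0.15 in galunisertib tumours and 5.50 ± 0.18 in control tumours (SD, n = 10 each), a difference of -0.26 (SE 0.08, 95% interval -0.43 to -0.09). The limma p was 0.00411 before and 0.333 after adjustment over all genes, and the exact permutation p was 0.0059 before and 0.337 after it, so the difference did not pass.

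The largest Trem2 difference of a single line was in MTO68, at -0.52 (SE 0.17, limma adjusted p = 0.0898), followed by MTO140 at -0.39 (SE 0.17, adjusted p = 1). Without line MTO68 the difference over the other lines was -0.20, and over the 20 omissions of 1 tumour it lay between -0.30 and -0.22. A second Trem2 probe set stayed below the filter on every array, and the mean of both probe sets differed by -0.16. Trem2 lies on chr17:48346401-48352276 (GRCm38.p6). Its level is low on the array scale, at a mean of 5.37 over all tumours against array medians between 4.93 and 5.12.

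Fibroblast genes are given beside Trem2 because their means were lower in the same tumours. All 8 fibroblast markers tested had a lower mean in galunisertib tumours, with a median difference of -0.55 and 7 of 8 at an unadjusted p under 0.05 but 0 called. Their mean level was between 6.85 and 7.64 in galunisertib tumours and between 7.15 and 8.57 in control tumours, and Pdgfra was below the filter. Line-centred levels of Trem2 and of this list had a Pearson r of 0.58 over 20 tumours. Trem2 was nearer to the lists of classical monocyte genes (r = 0.64) and of adipocyte and mesothelial genes (r = 0.60), and ran opposite to epithelial genes (r = -0.57). Endothelial genes had r = 0.03 with Trem2. The gene most like Trem2 over the same tumours was the collagen gene Col1a2 (r = 0.82), itself at a difference of -0.23 (SE 0.07, limma adjusted p = 0.373). Its level was also low on the array scale, at a mean of 5.77 over all tumours, whereas Col1a1 averaged 11.57 and Col3a1 11.76 in control tumours. These points share arrays, treatment groups and tumour composition. Levels were centred on line and not on treatment, so the lower treated means of Trem2 and of fibroblast genes enter these r values. The part of these cell types in the Trem2 values was not tested. With the mean level of epithelial genes as a covariate the Trem2 difference was -0.20, with that of the 5 leukocyte genes it was -0.27, and with the array SD it was -0.24.

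**Figure D1:**
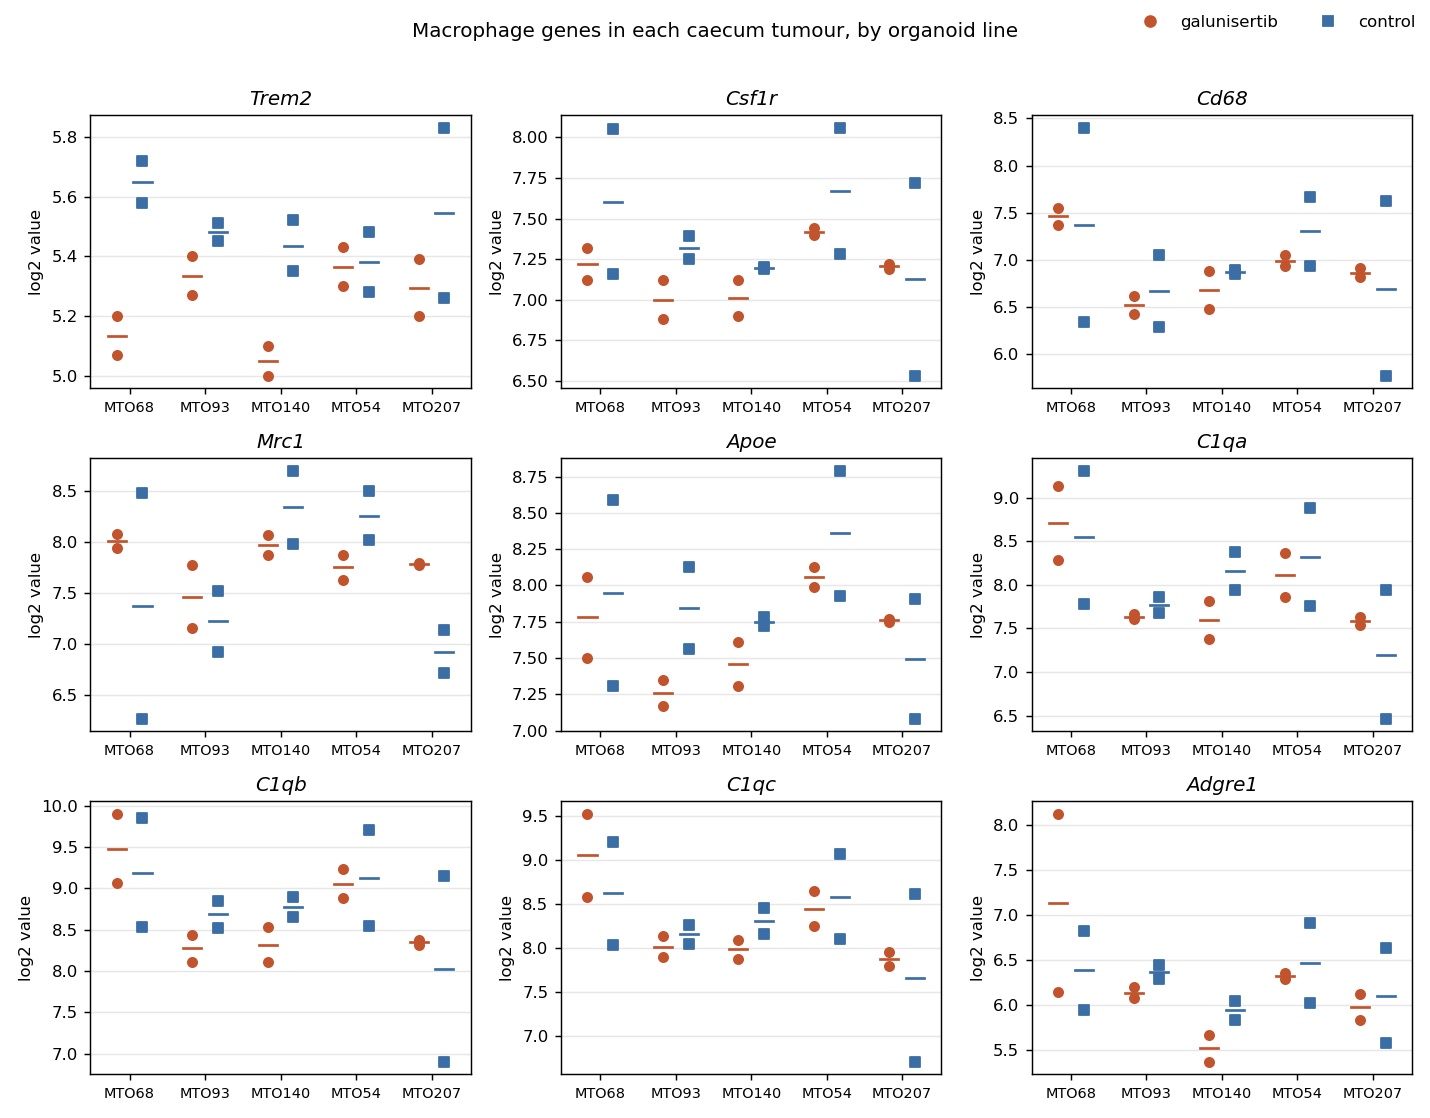
Log2 level of each of the 9 macrophage genes (vertical axis, a scale of its own per panel) in every tumour, by organoid line (horizontal axis), with galunisertib tumours as circles left of control tumours as squares and the mean of each pair as a bar. Trem2 was lower in both treated tumours of MTO68, MTO93 and MTO140, and for most other genes the pairs of control tumours of MTO68, MTO54 and MTO207 lay far apart.

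The receptors and surface markers came next. Csf1r, the receptor for CSF1 and IL-34, was between 6.88 and 7.44 (median 7.16) in galunisertib tumours and between 6.53 and 8.06 (median 7.26) in control tumours. Its difference over the 5 lines was -0.21 (SE 0.15, 95% interval -0.52 to 0.10, limma adjusted p = 0.704), with a lower treated mean in 4 of 5 lines. Both treated tumours lay below both controls in MTO93 (6.88 and 7.12, against 7.39 and 7.25 in control tumours) and in MTO140 (7.12 and 6.90, against 7.19 and 7.20 in control tumours). In the other lines the treated pair fell within the range of the control pair or overlapped it. Adgre1, an adhesion receptor long used as a surface marker of mouse macrophages, was between 5.37 and 8.12 (median 6.14) in galunisertib tumours and between 5.58 and 6.91 (median 6.17) in control tumours, a difference of -0.03 (SE 0.22, 95% interval -0.50 to 0.44). Its highest value, 8.12, was a treated MTO68 tumour, while the other treated MTO68 tumour was at 6.15 and the MTO68 controls were at 6.82 and 5.95. Cd68, a glycoprotein of late endosomes and lysosomes, was between 6.43 and 7.55 (median 6.89) in galunisertib tumours and between 5.77 and 8.40 (median 6.92) in control tumours. Its difference was -0.08 (SE 0.24, 95% interval -0.57 to 0.41), and the groups overlapped in every line.

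Mrc1, the mannose receptor CD206 of alternatively activated and tissue-resident macrophages, was the only one of the 9 to have both treated tumours above both controls in any line. In MTO207 its level was 7.77 and 7.79 in galunisertib tumours, against 7.13 and 6.71 in control tumours, a difference of 0.86 (SE 0.51, limma adjusted p = 0.654). In MTO54 it was 7.87 and 7.63 in galunisertib tumours, against 8.50 and 8.02 in control tumours, a difference of -0.51 (SE 0.51, limma adjusted p = 0.999), which was -0.27 without MTO54 control replicate 1 and -0.75 without replicate 2. The 2 lines thus stood on opposite sides, each without overlap. In MTO68 the level was 8.08 and 7.94 in galunisertib tumours, against 8.48 and 6.26 in control tumours, so that the treated pair lay inside a control pair 2.21 apart. In MTO140 it was 8.07 and 7.87 in galunisertib tumours, against 8.70 and 7.98 in control tumours, and in MTO93 it was 7.15 and 7.77 in galunisertib tumours, against 6.92 and 7.52 in control tumours. Both of these lines overlapped. Over the 5 lines the difference was 0.17 (SE 0.24, 95% interval -0.33 to 0.68, limma adjusted p = 0.817), and its sign turned to -0.06 with the array SD as a covariate and to -0.28 with the epithelial level as one.

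Apoe, which encodes the lipid carrier apolipoprotein E, was between 7.17 and 8.13 (median 7.68) in galunisertib tumours and between 7.08 and 8.79 (median 7.85) in control tumours. The difference over the 5 lines was -0.21 (SE 0.17, 95% interval -0.58 to 0.15, limma adjusted p = 0.729). The largest in a single line was in MTO93, with 7.17 and 7.35 in galunisertib tumours, against 8.13 and 7.56 in control tumours, at -0.58 (SE 0.40, adjusted p = 1), and it was -0.30 without MTO93 control replicate 1 and -0.87 without replicate 2. In MTO207 the sign was the other way, with 7.77 and 7.75 in galunisertib tumours, between control tumours at 7.91 and 7.08.

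C1qa, C1qb and C1qc encode the A, B and C chains of C1q and lie side by side on chromosome 4 (GRCm38.p6), C1qb on chr4:136880126-136886200, C1qc on chr4:136889801-136892936 and C1qa on chr4:136895916-136898844. The 300 bases around the starts of C1qb and C1qc are shown because these 2 genes had the most alike levels of any pair among the 9. Those of Mrc1, which followed the others less, and of Cd68 are given for comparison. Sequences are from RefSeq for GRCm38.p6, 5′ to 3′ on the gene's strand, from 250 bases before to 50 after the start. Capitals mark AGGAAGT or its reverse complement ACTTCCT, the core letters bound by PU.1 and other ETS factors, in the first 3 sequences, and TGAGTCA, the letters bound by AP-1, in the Cd68 sequence (reverse complement TGACTCA).
C1qb, chr4:136886151-136886450, minus strand: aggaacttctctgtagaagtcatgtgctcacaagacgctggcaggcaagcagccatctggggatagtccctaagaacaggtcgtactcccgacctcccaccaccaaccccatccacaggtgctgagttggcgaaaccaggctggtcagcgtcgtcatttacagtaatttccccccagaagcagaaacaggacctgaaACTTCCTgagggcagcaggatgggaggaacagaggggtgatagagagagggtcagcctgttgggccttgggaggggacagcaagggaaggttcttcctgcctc
C1qc, chr4:136892865-136893164, minus strand: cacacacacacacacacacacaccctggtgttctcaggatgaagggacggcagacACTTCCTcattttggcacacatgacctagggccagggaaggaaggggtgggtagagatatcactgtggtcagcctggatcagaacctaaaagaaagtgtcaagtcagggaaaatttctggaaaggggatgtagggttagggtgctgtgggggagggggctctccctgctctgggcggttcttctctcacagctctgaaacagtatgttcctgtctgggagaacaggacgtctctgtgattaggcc
Mrc1, chr2:14229164-14229463, plus strand: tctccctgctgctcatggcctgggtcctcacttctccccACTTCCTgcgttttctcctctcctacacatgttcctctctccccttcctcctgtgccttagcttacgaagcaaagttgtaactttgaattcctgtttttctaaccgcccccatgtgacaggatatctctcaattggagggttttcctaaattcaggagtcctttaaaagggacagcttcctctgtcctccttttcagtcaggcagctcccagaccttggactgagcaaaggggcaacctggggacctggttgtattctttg
Cd68, chr11:69666121-69666420, minus strand: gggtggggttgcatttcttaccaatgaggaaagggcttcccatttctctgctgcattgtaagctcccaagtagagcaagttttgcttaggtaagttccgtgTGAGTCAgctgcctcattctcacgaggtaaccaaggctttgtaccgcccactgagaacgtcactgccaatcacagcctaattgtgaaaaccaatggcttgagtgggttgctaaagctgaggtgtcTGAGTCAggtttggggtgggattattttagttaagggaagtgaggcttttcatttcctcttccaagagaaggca
AGGAAGT was searched on both strands and is in 9.4% of 32851 such windows of 300 bases over all genes, and TGAGTCA is in 5.2%, and the 2 motifs do not overlap in these windows. The match begins at -53 from the start in C1qb, at -195 in C1qc and at -211 in Mrc1, and the AP-1 letters begin at -149 and -24 in Cd68. Windows of 6 of the 9 genes were searched, with none for C1qa, Csf1r and Adgre1. The sequences shown are those with a match, and the windows of Trem2 and Apoe hold neither run of letters. A match is a description of these letters, and nothing here measured the binding of a factor.

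The 3 C1q genes moved together from tumour to tumour. C1qb was 9.90 and 9.06 in galunisertib tumours of MTO68, against 9.85 and 8.53 in its control tumours. In MTO54 it was 9.23 and 8.88 in galunisertib tumours, against 9.71 and 8.55 in control tumours. In MTO207 it was 8.32 and 8.38 in galunisertib tumours, against 9.15 and 6.90 in control tumours. In each of these 3 lines the groups overlapped, and in MTO54 and MTO207 the treated pair lay inside the control pair. In MTO140 it was 8.53 and 8.11 in galunisertib tumours, against 8.90 and 8.65 in control tumours, and in MTO93 it was 8.11 and 8.44 in galunisertib tumours, against 8.85 and 8.52 in control tumours. Both treated tumours were the lower ones in these 2 lines. Over the 5 lines C1qb averaged 8.70 ± 0.57 in galunisertib tumours and 8.76 ± 0.81 in control tumours (SD, n = 10 each), a difference of -0.06 (SE 0.25, 95% interval -0.59 to 0.46, limma adjusted p = 0.93). C1qa was between 7.38 and 9.13 (median 7.74) in galunisertib tumours and between 6.46 and 9.31 (median 7.90) in control tumours, a difference of -0.07 (SE 0.22, 95% interval -0.54 to 0.40). C1qc was between 7.80 and 9.53 (median 8.12) in galunisertib tumours and between 6.71 and 9.21 (median 8.21) in control tumours, a difference of 0.01 (SE 0.22, 95% interval -0.45 to 0.47). The intervals of all 3 leave room for a rise or a fall of about 0.4 to 0.6.

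Within single lines, the counts of lower and higher genes differed. In MTO140, 9 of the 9 had a lower mean in galunisertib tumours (median -0.37, against 48.9% of all genes) and 7 of 9 had both treated tumours below both controls, against 12.6% of all genes. Limma called 0 of the 9 there and 0.00643% of all genes. In MTO93, 8 of 9 had a lower mean (median -0.15, against 46.8% of all genes) and 6 of 9 had both treated tumours below, against 14.4% of all genes, and limma called 0 of the 9 and 0% of all genes. The 7 and 6 genes are not separate observations, since most of the 9 rise and fall together from tumour to tumour. In MTO54, 9 of 9 had a lower mean (median -0.20, against 46.8% of all genes), but Mrc1 alone had both treated tumours below both controls, against 16.4% of all genes, and limma called 0 of the 9 and 0% of all genes. In MTO68, 3 of 9 had a lower and 6 a higher mean (median 0.16), against 47.6% of all genes with a lower one, and Trem2 alone was below without overlap, against 23.2% of all genes, and limma called 0 of the 9, against 2.01% of all genes. In MTO207, 2 of 9 had a lower and 7 a higher mean (median 0.22), against 54.2% of all genes with a lower one, Mrc1 alone was above without overlap, against 26.3% of all genes, and limma called 0 of the 9 and 0% of all genes. In the other directions 0 of the 9 stood without overlap, above in MTO68 (31.2% of all genes), MTO93 (18.1%), MTO140 (8.32%) and MTO54 (17.8%) or below in MTO207 (31.6%).

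Marker genes of other cells are given for the same lines. In MTO140, 8 of 8 fibroblast genes (median -0.92, 5 at an unadjusted p under 0.05), 6 of 6 endothelial genes (median -0.47) and 5 of 5 common leukocyte genes (median -0.24) had a lower mean in galunisertib tumours. In MTO93, 8 of 8 fibroblast genes (median -0.51) and 6 of 6 endothelial genes (median -0.46) had a lower mean, whereas 5 of 5 common leukocyte genes had a higher one (median 0.48). Limma called 0 genes of these lists in both lines, and their part in the counts of the 9 was not tested.

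Whether the effect of galunisertib differed among the lines was tested by the interaction of line and treatment. Limma's F test called 0 of the 9, against 0.0643% of all genes, and the smallest adjusted p of the 9 was 0.612, for Mrc1. The difference between MTO140 and MTO93 on one side and MTO68 and MTO207 on the other was not tested by itself. The F test took all lines together. Without MTO68 control replicate 1, which leaves 1 control in that line, Mrc1 alone passed (adjusted p = 0.0277), as did 18.0% of all genes. Its difference in MTO68 was then 1.75 (adjusted p = 0.0029), at a call of 53.5% of all genes, while without the other control it was -0.47.

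**Figure D2:**
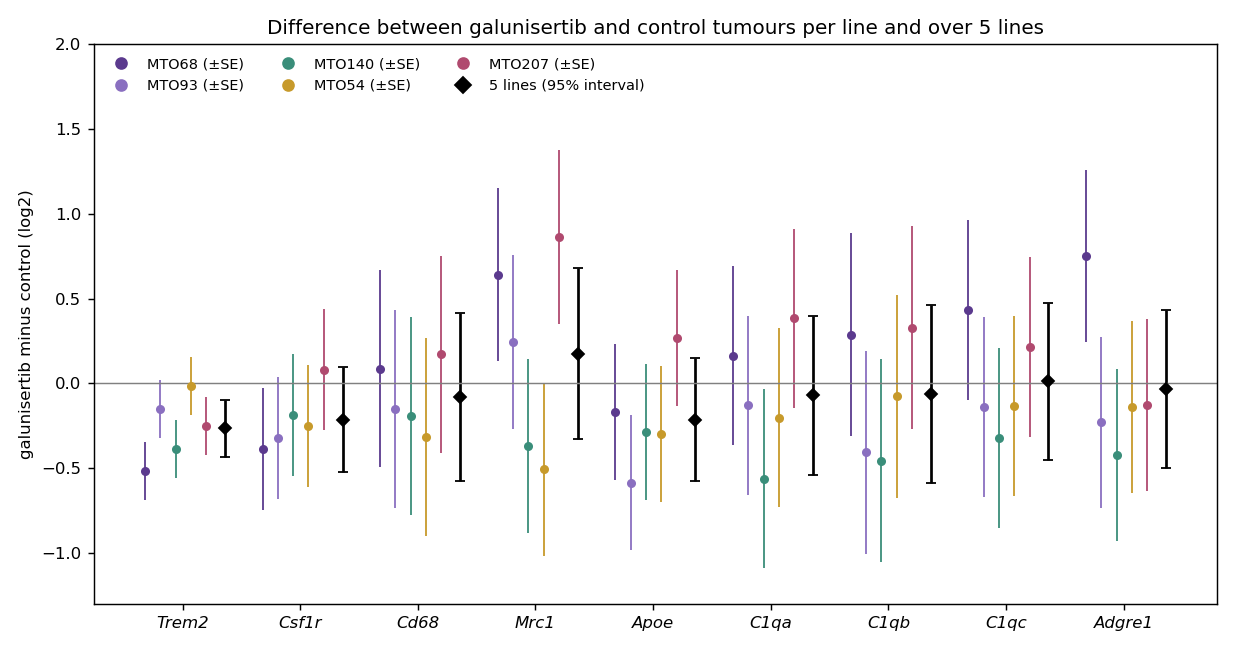
Difference between galunisertib and control tumours (log2, vertical axis) for each of the 9 genes (horizontal axis), with coloured points and bars for each line (difference ± SE, 2 tumours per group) and a black diamond with its 95% interval for all 5 lines. The Trem2 interval (-0.43 to -0.09) lies below 0, the other 8 intervals include 0, and MTO68 and MTO207 stand mostly above MTO93, MTO140 and MTO54.

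The 2 control tumours of a line differed more than the 2 galunisertib tumours for each of the 9 genes, by the median gap over the 5 lines. The share of all genes with this pattern was not counted, and the pattern did not hold in every line. In MTO140 the galunisertib gap was the larger one for Csf1r (0.22 against 0.01), Cd68 (0.40 against 0.04), Apoe (0.29 against 0.06), C1qb and Adgre1. There the control gap was the larger one for Trem2, Mrc1, C1qa and C1qc. In MTO93 the galunisertib gap was larger for Trem2 (0.13 against 0.06), Csf1r (0.24 against 0.14), Mrc1 (0.63 against 0.60) and C1qc (0.24 against 0.22). The control gap in MTO93 was larger for Cd68, Apoe, C1qa and Adgre1, and C1qb had 0.33 in both. In MTO68 the galunisertib gap was larger for Adgre1 alone (1.97 against 0.87). For Cd68 the median gap was 0.17 between galunisertib tumours and 0.75 between control tumours. For C1qb it was 0.36 between galunisertib tumours and 1.17 between control tumours, and for Csf1r it was 0.20 between galunisertib tumours and 0.79 between control tumours. The widest control gaps were in MTO68 (Mrc1 2.21, Cd68 2.06) and MTO207 (C1qb 2.25, C1qc 1.91). Adgre1 had the widest gap between treated tumours, 1.97 in MTO68, and its SD over all tumours of a treatment was 0.73 under galunisertib and 0.44 in controls. No test of these gaps was made. Genes shared by all leukocytes varied likewise, and the common leukocyte gene Ptprc had a median gap of 0.51 between galunisertib tumours and 1.41 between control tumours. Their mean level was 8.38 and 7.20 in the MTO68 controls and 7.86 and 6.37 in the MTO207 controls. The MTO207 controls had the same array SD, so their gap in C1qb (9.15 and 6.90) was not accompanied by a gap in array spread, whereas in the MTO68 controls both differed.

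Levels were then ordered by line, as the mean of 4 tumours of a line. The 3 C1q genes had 1 order, MTO68, MTO54, MTO140, MTO93 and MTO207 from high to low, with C1qb at 9.33 ± 0.66, 9.09 ± 0.50, 8.55 ± 0.33, 8.48 ± 0.30 and 8.19 ± 0.94 (SD, n = 4 each). Neighbours in the order differed by less than the larger SD of the pair for all 9 genes, except C1qb between MTO54 and MTO140, where the gap of 0.55 was above an SD of 0.50. Mrc1 had another order, with MTO140 at 8.16 ± 0.37, MTO54 at 8.01 ± 0.37, MTO68 at 7.69 ± 0.98, MTO207 at 7.35 ± 0.53 and MTO93 at 7.34 ± 0.38 (SD, n = 4 each). MTO54 and MTO68 took the upper 2 places for Csf1r, Cd68, Apoe, Adgre1 and the C1q genes, and MTO140 was lowest for Trem2, Csf1r and Adgre1.

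In control tumours alone, limma's F test over the 5 lines called 0 of the 9 and 2.80% of all genes. Mrc1 had the smallest p of the 9, 0.0481 before and 0.135 after adjustment. Its level was 8.70 and 7.98 in MTO140 and 8.50 and 8.02 in MTO54, against 8.48 and 6.26 in MTO68 and 6.92 and 7.52 in MTO93. The LiM line MTO140 was higher than the parental LAKTP lines by 1.05 (SE 0.44, limma adjusted p = 0.164), and the LAKP line MTO54 by 0.97 (SE 0.44, limma adjusted p = 0.384), so neither passed. Markers of other cells differed in the same comparisons. Of 6 endothelial genes 6 had a higher mean in MTO140 (median 0.61) and 6 in MTO54 (median 0.75), while of 7 T and NK cell genes 7 had a lower mean in MTO140 (median -0.61) and 7 in MTO54 (median -0.52). Of 8 fibroblast genes 8 had a higher mean in MTO140 (median 0.34) and 8 in MTO54 (median 0.48), and of 8 epithelial genes 8 in MTO140 (median 0.63) and 4 in MTO54 (median -0.03). Line-centred Mrc1 levels over 20 tumours had r = 0.73 with endothelial, 0.61 with epithelial, 0.39 with fibroblast, -0.68 with T and NK cell and -0.75 with dendritic cell genes. Centring takes out the differences between lines, so these r values do not bear on them. The part of these cells in the Mrc1 values was not tested. Against the parental LAKTP lines, limma called 0 of the 9 in MTO140, where it called 0.977% of all genes, 0 of the 9 in MTO54 at 1.33% of all genes and 0 of the 9 in MTO207 at 0.0386% of all genes. In the LAKT line MTO207 all 9 had lower means than in the parental LAKTP lines, as did 47.9% of all genes. The largest of these differences was that of C1qa, at 7.94 and 6.46 in MTO207, against 9.31 and 7.78 in MTO68 and 7.68 and 7.86 in MTO93, or -0.96 (SE 0.46, limma adjusted p = 0.275). It was -0.21 without MTO207 control replicate 2 and -1.70 without replicate 1. Without MTO207 control replicate 2, 7 of the 9 had a higher value in MTO207 than in the parental LAKTP lines, between 0.015 for Apoe and 0.60 for Cd68.

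Calls among the 9 in these comparisons of lines appeared only without 1 of the MTO68 control tumours, among the omissions of 1 tumour. Without MTO68 control replicate 1, Mrc1 passed in MTO140 (1.60, limma adjusted p = 0.00334) and in MTO54 (1.52, adjusted p = 0.00682), where 40.8% and 9.90% of all genes were then called, and in the F test (adjusted p = 0.00517), at 41.9% of all genes. Without MTO68 control replicate 2 the Mrc1 difference was 0.49 in MTO140 and 0.41 in MTO54. In MTO207, without that tumour, Mrc1 at -0.93 (adjusted p = 0.0264) and C1qa at -1.34 (adjusted p = 0.0306) passed, at 32.6% of all genes, and both passed in the F test (adjusted p = 0.00725 and 0.0465), at 47.1% of all genes. The tumour that remained was assumed to vary like those of the other groups.

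Across the 20 tumours, with each gene centred on its line means, the 9 genes were alike to unequal degrees. The correlations are descriptions over tumours that share arrays, RNA and treatment groups. C1qb and C1qc had a Pearson r of 0.98, and C1qa had r = 0.94 with each of them. Csf1r and Apoe had r = 0.90, and Csf1r and Cd68 r = 0.86. C1qa, C1qb and C1qc each had r of 0.95 to 0.96 with the mean of the other genes, Adgre1 0.71, Mrc1 0.62 and Trem2 0.31. The C1q pairs thus stood closest and Trem2 furthest from the rest. Trem2 and Mrc1 had r = -0.105. Without the 4 control tumours of MTO68 and MTO207 (n = 16), which held the widest gaps, C1qb and C1qc kept r = 0.95, Csf1r and Apoe 0.90, and Trem2 had 0.14 with the mean of the others.

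**Figure D3:**
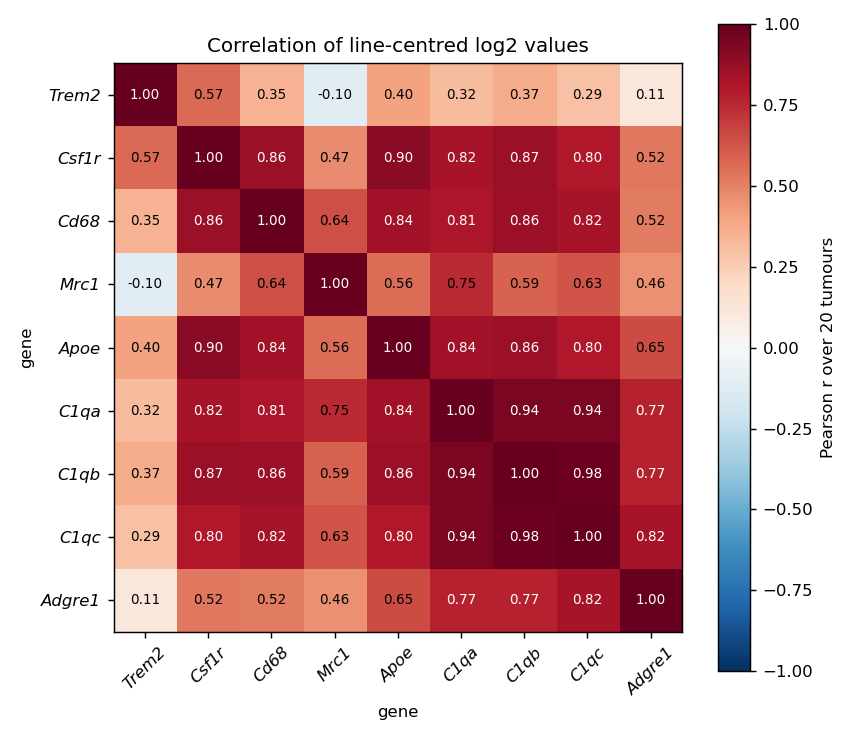
Pearson correlation (colour and number in each cell) between each pair of the 9 genes over 20 tumours, with log2 levels centred on the mean of each line. The C1q genes form the block of highest values (0.94 to 0.98), and Trem2 and Mrc1 have the lowest with most others.

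The genes most like the mean of the 9 over the same 20 tumours were Tyrobp, the adaptor of TREM2 (r = 0.914), Fcer1g, the adaptor of Fc receptors (r = 0.907), the survival gene Bcl2a1a (r = 0.907), the inhibitory Fc receptor gene Fcgr2b (r = 0.901), the lysosomal genes Npc2 (r = 0.899) and Psap (r = 0.896), and the leukocyte cytoskeleton genes Fermt3 (r = 0.888) and Lcp1 (r = 0.886). An r over 0.8 was reached by 50 genes outside the list. Symbols starting with Gm and a digit or ending in Rik were passed over for the genes named here, not for the count. Nearest to single genes, among genes outside the list, stood Lpcat2, an enzyme of phospholipid synthesis, for Csf1r (r = 0.923), the chemokine gene Ccl6 for Cd68 (r = 0.955), Wdfy2 for Mrc1 (r = 0.912), the integrin gene Itgb5 for Apoe (r = 0.899), Plekho1 for C1qa (r = 0.897), Fcer1g for C1qb (r = 0.952), Fermt3 for C1qc (r = 0.942) and Ly86, the partner of the receptor RP105, for Adgre1 (r = 0.931). Trem2 had Col1a2, a gene of the fibroblast list, as its nearest, as given above.

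The spread of the array moved with some of the 9. Line-centred levels of Mrc1 had r = 0.80 with the array SD over 20 tumours, and those of Trem2 r = -0.41, while the other 7 lay between 0.27 and 0.59. With the array SD as a covariate the Mrc1 difference in MTO68 was -0.52, against 0.64 without it, and that of MTO140 over the parental LAKTP lines was 0.18, against 1.05 without it.

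**Figure D4:**
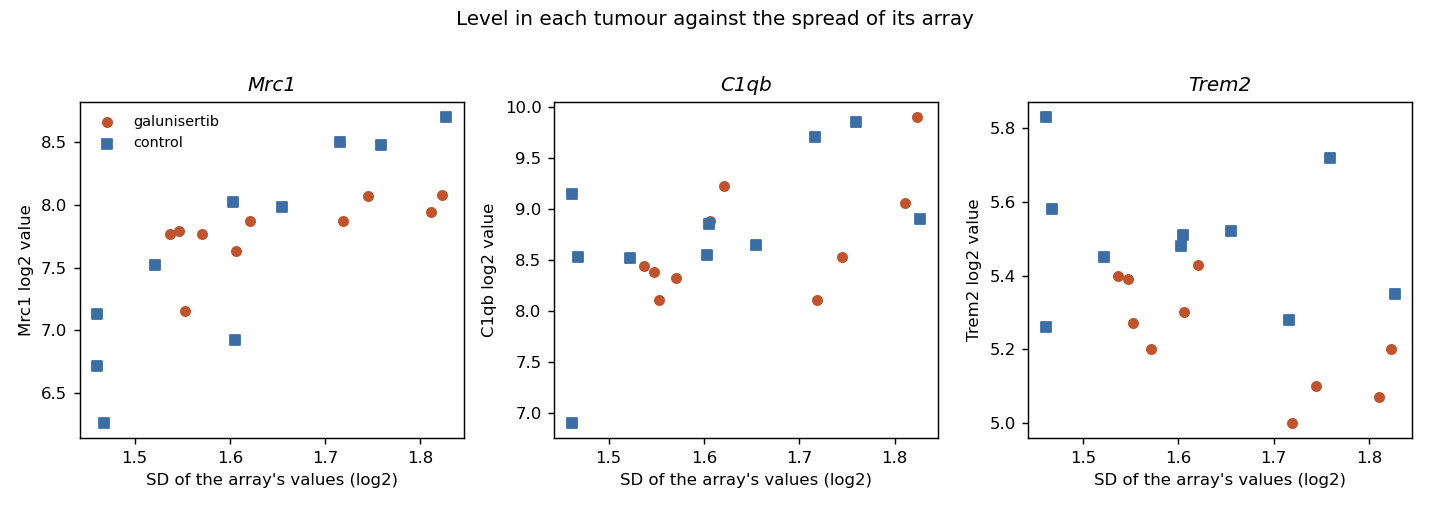
Log2 level of Mrc1, C1qb and Trem2 (vertical axes) against the SD of all values on the same array (log2, horizontal axis), with galunisertib tumours as circles and control tumours as squares. Mrc1 levels are higher on arrays of wider spread (line-centred r = 0.80), and the lowest C1qb value, 6.90, is a MTO207 control on an array of the same spread as the other MTO207 control at 9.15.

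Genes that act with the 9 were described by lists of known roles, none of which had a called gene over the 5 lines. Of 8 genes for CSF1R ligands and macrophage transcription factors, 6 had a lower mean in galunisertib tumours (median -0.08). The ligand gene Csf1 differed by -0.07 (SE 0.10), Il34 by -0.13 (SE 0.11) at a level near the filter, the PU.1 gene Spi1 by 0.08 (SE 0.08) and Irf8 by 0.24 (SE 0.16). Of 14 genes for the TREM2 adaptor, its signalling and lipid handling, 8 had a higher mean (median 0.05). Tyrobp averaged 8.91 ± 0.36 in galunisertib tumours and 9.06 ± 0.71 in control tumours (SD, n = 10 each), the kinase gene Syk differed by 0.25 (SE 0.14) and the phosphatase gene Inpp5d by -0.17 (SE 0.13). None of these passed the test.

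Of 24 genes for phagocytosis, lysosomes and scavenger receptors, 12 had a higher and 12 a lower mean (median -0.0009), close to all genes. The scavenger receptor gene Stab1 averaged 7.17 in galunisertib tumours and 7.59 in control tumours, a difference of -0.42 (SE 0.16, limma adjusted p = 0.501), and the fractalkine receptor gene Cx3cr1 averaged 5.59 in galunisertib tumours and 6.10 in control tumours, a difference of -0.51 (SE 0.22, adjusted p = 0.604). Of 8 complement genes beyond C1q, 5 had a lower mean (median -0.12). Serping1, which encodes the inhibitor of C1, averaged 7.58 in galunisertib tumours and 8.23 in control tumours, a difference of -0.65 (SE 0.22, adjusted p = 0.432), and the C1 protease gene C1s1 differed by -0.62 (SE 0.29, adjusted p = 0.625). Fibroblasts also make these 2 partners of C1q. Both were named for the smallest p of their list, so the size of their differences cannot be compared with that of the C1q genes. The 3 genes of the list with a higher mean were C2 at 0.20 (SE 0.16), C5ar1 at 0.19 (SE 0.19) and Cfp at 0.05 (SE 0.22). C1ra, the other C1 protease gene, was below the filter.

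Of 5 genes of classical monocytes, 4 had a lower mean (median -0.20), with the transglutaminase gene F13a1 at -0.37 (SE 0.11, adjusted p = 0.285) and the proteoglycan gene Vcan, also made by fibroblasts, at -0.49 (SE 0.17, adjusted p = 0.441). Of 7 genes of tissue-resident macrophages, 4 had a higher mean (median 0.11), with the selenium carrier gene Selenop at 0.40 (SE 0.27) and Cbr2 at 0.51 (SE 0.35). Of 10 genes of alternative and inflammatory activation, 6 had a higher mean (median 0.02). Arg1, the arginase of alternatively activated and suppressive myeloid cells, differed by -0.80 (SE 0.31, adjusted p = 0.496), and the neutrophil-attracting chemokine gene Cxcl2 differed by 0.73 (SE 0.41, adjusted p = 0.674). Of 8 receptor genes for osteopontin, 6 had a lower mean (median -0.24), with the smallest p for the integrin genes Itga5 at -0.44 (SE 0.10, adjusted p = 0.158) and Itgb5 at -0.50 (SE 0.19, adjusted p = 0.504) and the widest difference for Itgb3 at -0.55 (SE 0.24, adjusted p = 0.603), while Cd44 differed by 0.02 (SE 0.20).

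**Figure D5:**
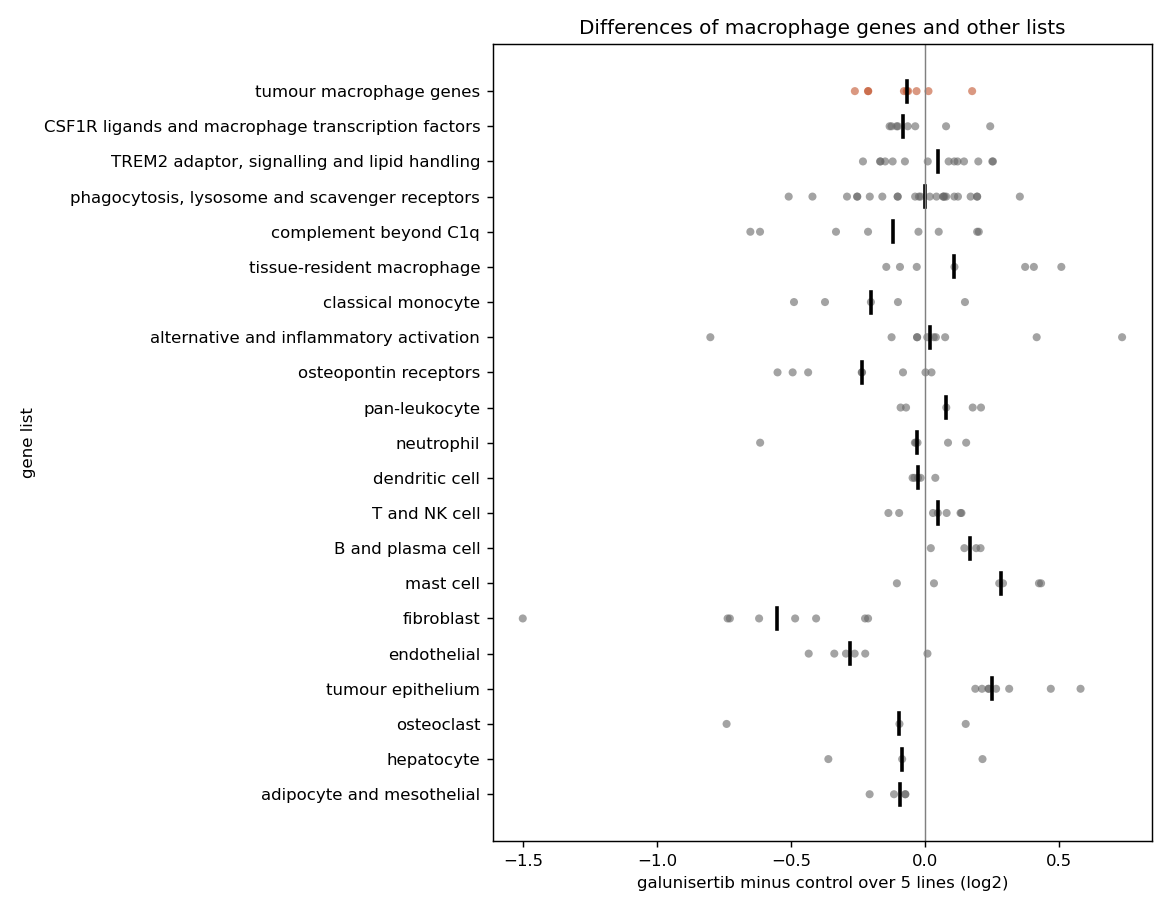
Difference between galunisertib and control tumours over the 5 lines (log2, horizontal axis) for each tested gene (points) of the macrophage genes, of role lists and of marker lists of other cell types (vertical axis), with the median of a list as a bar. The macrophage genes have a median of -0.07, fibroblast genes lie furthest to the left (median -0.55), and 8 of 8 epithelial genes lie above 0.

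Genes of these role lists were called in 3 comparisons. Of all genes tested, limma called 2.01% for galunisertib in MTO68 and 1.33% for MTO54 over the parental LAKTP lines. It called 2.80% among the lines in control tumours. Igf1, a growth factor gene made by resident macrophages and by fibroblasts, averaged 10.85 in galunisertib tumours and 8.90 in control tumours of MTO68, a difference of 1.95 (SE 0.31, limma adjusted p = 0.00687), and was called in 18 of 20 omissions of 1 tumour, not without MTO68 control replicate 2 or MTO68 galunisertib replicate 1. In MTO140, MTO54 and MTO207 its difference was -0.59, -0.50 and -0.37, and in MTO93 it was 0.06 (SE 0.31 each). Cfb, which encodes complement factor B, averaged 6.86 in control tumours of MTO54 and 8.41 in those of the parental LAKTP lines, a difference of -1.55 (SE 0.33, adjusted p = 0.0373), and was called in 12 of 20 omissions. It was not called without either MTO54 control tumour, either MTO93 control tumour, either treated MTO93 tumour or either treated MTO207 tumour. Abcg1, a cholesterol exporter gene, differed among the lines in control tumours (F test, adjusted p = 0.0273), at 7.70 in MTO68 and between 5.67 (MTO207) and 6.01 (MTO93) in the other lines, and was not called without either treated MTO93 tumour.

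Markers of other cells were set beside the 9 genes. Over 20 tumours, the mean line-centred level of the 9 had r = 0.94 with the list of phagocytosis and lysosome genes. It had r = 0.84 with the 5 common leukocyte genes, 0.72 with osteoclast genes, 0.62 with endothelial genes and 0.60 with fibroblast genes. The r was 0.34 with tissue-resident macrophage genes, 0.255 with classical monocyte genes and 0.12 with epithelial genes. It was -0.17 with neutrophil genes, -0.36 with T and NK cell genes and -0.40 with dendritic cell genes. Epithelial genes had the higher mean in galunisertib tumours in 8 of 8 cases, with a median of 0.25 and 4 at an unadjusted p under 0.05, and 5 of 6 endothelial genes had the lower mean (median -0.28). Osteoclast genes, which share the macrophage lineage, had 3 tested members with a median of -0.10, and Calcr was below the filter. Hepatocyte genes, which would bring Apoe with them, were between 4.94 and 6.24 on average in galunisertib tumours and between 5.03 and 6.72 in control tumours, and their line-centred mean had r = -0.40 with that of the 9. The part of these cells in the values of the 9 genes was not tested beyond the covariates given above.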

How the data were processed

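Biotin-labelled RNA of 20 whole tumour fragments was hybridised, 1 tumour to an array, per the labels' protocols. The deposited values are log2 values per probe set (45141 probe sets), and RMA and affy are the tools listed in the submitters' processing notes, without a version. Tumours whose treatment is labelled LY are the galunisertib tumours, by the treatment protocol. Of the probe sets, 28898 carried 1 gene symbol (platform annotation), 551 carried more and 104 were controls, and 28689 were matched to current symbols by Entrez ID. The probe set of highest mean stood for each of 17097 genes, and genes were kept for testing (15556) if 2 arrays or more were above 4.16, the lower quartile of the whole table.

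The fits used limma 3.58.1 under R 4.3.3, with lmFit and a trended eBayes. The difference over 5 lines had line as a fixed term, and a model of 10 group means gave the other comparisons. All p-values are two-sided, adjusted by Benjamini and Hochberg's method across the 15556 genes and called at 0.05, and every adjusted p is limma's unless named as a permutation p. Exact permutation used 7776 arrangements within lines, with 0.000257 as the smallest p. The 2 tumours of a group are biological replicates per the design text, the labels give them no numbers, and replicate numbers here only name them. No arrays were identical. The models were tested on simulated data. The genes, lists and tests were chosen with earlier results of these data known. In the search for genes of like pattern, symbols starting with Gm and a digit or ending in Rik were passed over. Named genes were all members, the genes of a role list that were called, or else at most the 2 of smallest p, the 8 genes most like the members' mean and the nearest gene of each member. Csf1, Spi1, Tyrobp, Cd44, Itgb3 and Col1a2 were named outside that rule, after their values were seen. Alternatives were other filters, probe sets, normalizations and variance models, array weights, covariates, omission of each tumour and line, and other treatments of the line.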

Additional observations from a re-analysis of the deposited data

Results flagged for a closer look

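Each of the 9 genes was checked for a lone high or low tumour among the 10 galunisertib and among the 10 control tumours, 18 checks in all, by the gap to the nearest tumour over the whole range (Dixon's limit 0.466 for 10 tumours). Chance flags about 1 in 20 such groups, and lines differ within each group. Adgre1 at 8.12 in MTO68 galunisertib replicate 1 had the widest gap (0.640 of the range), and C1qc was also high in this tumour, at 9.53 (0.508). In MTO207 control replicate 2, C1qb was low at 6.90 (0.548) and C1qc at 6.71 (0.531). Mrc1 was low in MTO93 galunisertib replicate 1, at 7.15 (0.518). The causes were not tested.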

How the results depend on the processing

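No setting other than the omission of 1 tumour moved the count of called macrophage genes from 0 in any comparison, whereas the sign of a difference turned in 50 cases. The Trem2 difference over 5 lines kept its sign and did not pass under any setting (adjusted p between 0.0944 with array weights and 0.801 with the epithelial covariate). Most of the turned signs came with the array SD as a covariate. Over 5 lines, these were Mrc1 -0.064 and C1qc -0.15. In MTO68, these were Cd68 -1.04, Mrc1 -0.52, C1qa -0.82, C1qb -0.61 and C1qc -0.37. In MTO54, these were C1qa 0.022, C1qb 0.13, C1qc 0.049 and Adgre1 0.013. In MTO207, these were Csf1r -0.18, Cd68 -0.37, Apoe -0.11, C1qa -0.090, C1qb -0.11 and C1qc -0.17. For MTO140 over parental LAKTP, these were C1qa -0.73. For MTO54 over parental LAKTP, these were Cd68 -0.11, C1qa -0.18, C1qb -0.12, C1qc -0.086 and Adgre1 -0.14. For MTO207 over parental LAKTP, these were Cd68 0.38, Mrc1 0.35, Apoe 0.089 and Adgre1 0.15. Others came with quantile normalization of the deposited values. Over 5 lines, these were C1qc -0.088. In MTO68, these were Cd68 -0.22, C1qa -0.36, C1qb -0.23 and C1qc -0.086. In MTO54, these were C1qb 0.012. In MTO207, these were Csf1r -0.085. For MTO140 over parental LAKTP, these were C1qa -0.40. For MTO54 over parental LAKTP, these were C1qa -0.041, C1qb -0.021 and C1qc -0.0094. Over 5 lines, C1qc was -0.034 with array weights, -0.046 with the leukocyte covariate, -0.061 with the epithelial covariate, -0.039 without line MTO207 and -0.094 without line MTO68, and Mrc1 was -0.28 with the epithelial covariate. Without line MTO140, C1qa was 0.054, C1qb 0.034 and Adgre1 0.064, and without line MTO93, C1qb was 0.021 and Adgre1 0.016. The mean of probe sets gave Trem2 0.048 for MTO207 over parental LAKTP.

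Omission of 1 tumour in turn gave the following lowest and highest differences, where a sign turned. Over 5 lines, the ranges were Cd68 -0.24 to 0.055, C1qa -0.21 to 0.023, C1qb -0.25 to 0.068, Mrc1 -0.017 to 0.30, C1qc -0.14 to 0.13 and Adgre1 -0.23 to 0.051. In MTO68, the ranges were Csf1r -0.83 to 0.059, Apoe -0.81 to 0.47, Cd68 -0.94 to 1.12, Mrc1 -0.47 to 1.75, C1qa -0.60 to 0.93, C1qb -0.37 to 0.94, C1qc -0.15 to 1.02 and Adgre1 -0.23 to 1.74. For MTO140 over parental LAKTP, the ranges were Cd68 -0.67 to 0.36, Apoe -0.47 to 0.17, C1qb -0.49 to 0.17, C1qc -0.38 to 0.21 and C1qa -0.38 to 0.39. For MTO207 over parental LAKTP, the ranges were Trem2 -0.30 to 0.27, Cd68 -1.25 to 0.60, Mrc1 -0.93 to 0.18, Csf1r -0.94 to 0.25, Apoe -0.82 to 0.015, C1qb -2.04 to 0.21, C1qc -1.68 to 0.22 and Adgre1 -0.79 to 0.25. For MTO54 over parental LAKTP, the ranges were Csf1r -0.19 to 0.60, Cd68 -0.23 to 0.80, C1qa -0.39 to 0.72, C1qb -0.39 to 0.78, C1qc -0.29 to 0.67 and Adgre1 -0.35 to 0.54. In MTO93, the ranges were Cd68 -0.53 to 0.23 and Mrc1 -0.070 to 0.56. In MTO140, the ranges were Cd68 -0.39 to 0.0072. In MTO54, the ranges were Csf1r -0.65 to 0.14, Cd68 -0.68 to 0.045, Apoe -0.73 to 0.13, C1qa -0.76 to 0.35, C1qb -0.66 to 0.51, C1qc -0.61 to 0.35, Adgre1 -0.58 to 0.31 and Trem2 -0.11 to 0.085. In MTO207, the ranges were Trem2 -0.54 to 0.033, Adgre1 -0.65 to 0.40, Csf1r -0.51 to 0.68, Cd68 -0.76 to 1.10, Apoe -0.15 to 0.68, C1qa -0.36 to 1.13, C1qb -0.80 to 1.45 and C1qc -0.74 to 1.17. The count of called genes of the 9 ran from 0 to 1 in MTO68, for the interaction and for MTO140 and MTO54 over parental LAKTP, and from 0 to 2 for MTO207 over parental LAKTP and for levels among lines in control tumours, each time only without 1 of the MTO68 control tumours. The causes were not tested. Of the role-list genes, with settings added after their calls were seen, Cfb did not pass with median centring (adjusted p = 0.071), and Cfb (0.181), Igf1 (0.0914) and Abcg1 (0.121) did not pass with array weights. No paired analysis was possible because the labels give the tumours no replicate numbers. Depth is not defined for arrays, and the 2 tumours per group set the width of the intervals.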
